A study of Drosophila melanogaster with 5 samples.

Results

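The genes described here are 44 regulators and structural components of the cell division cycle and of DNA replication in Drosophila melanogaster, chosen by name as a functional group. A gene was taken as measured when a probe set on the array had its symbol as the only annotated gene, which held for 31 of the 44, each with 1 probe set, out of 10844 genes named on the array. The other 13 (geminin, Mcm7, RnrS, dap, CycA, Cdk1, stg, polo, aurA, Top2, BubR1, asp and pav) have no such probe set in the annotation used and were not analysed here. RNA came from cells that a flow cytometer sorted for green fluorescence (GFP). The protein was expressed through UAS-GFP under a Gal4 driver that carries 7.4 kb of DNA of the choline acetyltransferase gene (Cha-Gal4). One array held such cells from dissociated larval brain (larval brain, replicate a) and 4 arrays held them from cultures of embryonic cells (embryo culture, replicates a, b, c and d). The labels call both cholinergic neurons and give no stage in days, and total RNA was the starting material throughout. Whether arrays a to d stand for separate cultures is not stated, so that p-values reflect no more than the spread among these samples, part or all of which may be technical. Both groups are defined by GFP from the same driver, so that any cell that carried GFP in either source, whatever its type, could enter the sort.

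A dividing cell licenses its replication origins by loading the origin recognition complex, the Cdt1 protein and the Mcm helicase, copies its DNA in S phase with the sliding clamp PCNA and nucleotides from ribonucleotide reductase, and then condenses and separates its chromosomes in mitosis. Cyclins and their kinase partners drive the steps, the E2F transcription factors switch on S phase genes, and the retinoblastoma protein Rbf, the kinase inhibitor Dacapo (dap) and the Fizzy-related protein (fzr) hold cells out of division. In the fly nervous system, neuroblasts and ganglion mother cells divide, and the neurons that ganglion mother cells produce leave the cycle.

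Each value is the intensity of 1 probe set on the authors' scale, on which all arrays have the same trimmed mean. The median intensity was 207 on the larval brain array, and 222, 235, 206 and 257 on arrays a to d of embryo culture. A background was set for each array from 23 control probe sets that match yeast, mouse or bacterial sequence, as the highest of their signals. It was 82.6 on the larval brain array, and 148, 200, 119 and 271 on arrays a to d of embryo culture. Log2 differences are larval brain minus embryo culture after 47.4 was added to each intensity, which understates the change of dim genes, and come with a standard error (SE) and a p-value of limma's moderated test adjusted by Benjamini-Hochberg over 13966 probe sets. With 1 larval brain array, only the embryo culture arrays supplied the spread, and the lone array is assumed to vary like them. The labelled identity was checked first: ChAT, the enzyme that makes acetylcholine, had an intensity of 2255 in larval brain, and 1457, 2573, 2846 and 2927 on arrays a to d of embryo culture. The neuronal RNA-binding gene elav stood at 3047 in larval brain, and at 104, 61.4, 713 and 667 in embryo culture, which is under background on arrays a and b. Of the 11 neuronal markers measured, 9 were above background in larval brain, and 7, 7, 8 and 8 on arrays a to d of embryo culture. The shares of all probe sets above background were 68% in larval brain, and 59.6%, 53.8%, 61.9% and 48.6% on arrays a to d. The count on arrays a and b is thus not far from what all probe sets show. ChAT, the choline transporter gene ChT, futsch, Appl, Rdl and nrv3 were above background on each array. The genes nSyb and brp were above it in larval brain. In embryo culture, nSyb was under it on array b, and brp on arrays a, c and d. The genes para and cac were above it on no array of either source.

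Most of the measured division genes stood above the embryo culture range in larval brain, but none passed the test. Of the 31 measured genes, 0 had an adjusted p under 0.05 in either direction by limma, where 0.866% of all probe sets passed as higher and 2.39% as lower in larval brain. The larval brain value lay above all 4 embryo culture arrays for 22 of the 31, against 25.6% of all probe sets, below all 4 for 1, Cdk4, against 28.6%, and inside their range for 8. At an unadjusted p under 0.05, 14 were higher and 1 lower, against 8.21% and 7.83% of all probe sets. Differences were positive for 29 of the 31, against 46.0% of all probe sets. The median difference of the 31 was 1.24, against -0.07 over all probe sets. An adjusted p that misses the threshold does not show equal levels: the median SE of the 31 was 0.60, and no probe set with a difference under 1.35 passed the test. An exact permutation test of 1 array against 4 could not go below p = 0.2. In sorted bulk RNA, a change in the share of cells that carry a transcript and a change in its amount per cell cannot be told apart.

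**Figure D1:**
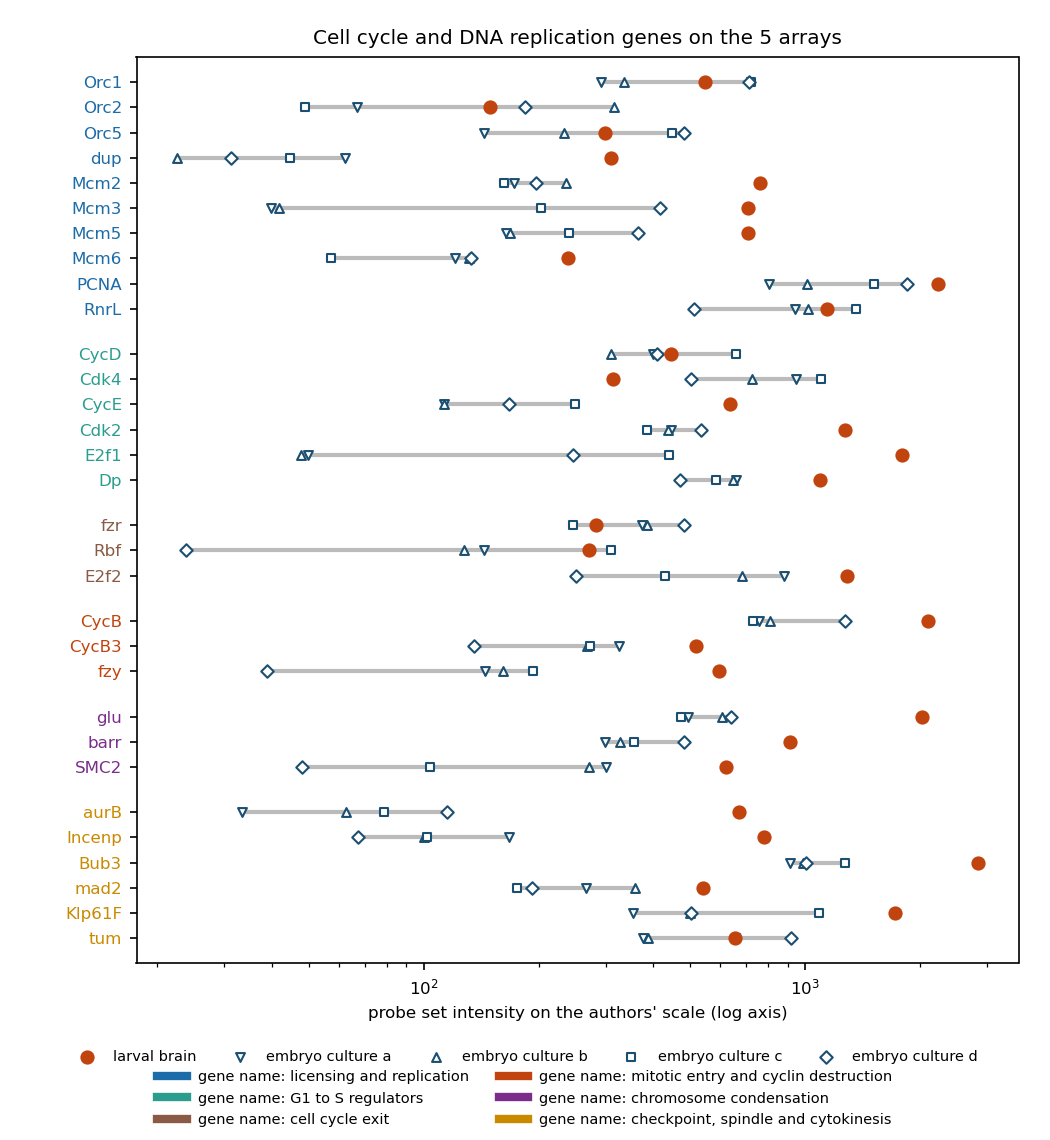
Intensity of the 31 measured genes on each array (log axis), in 6 role groups marked by the colour of the gene name. The filled circle is the larval brain array, open symbols are embryo culture arrays a to d, and the grey line spans the 4 embryo culture values; the filled circle lies right of the line for 22 genes and left of it for Cdk4.

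The replication genes divided between the licensing factor dup, the helicase subunits and PCNA, which stood above the embryo culture range, and the origin recognition genes and RnrL, which did not. The gene dup, which encodes the fly Cdt1 licensing factor, had an intensity of 309 in larval brain, and of 62.3, 22.5, 44.5 and 31.3 on arrays a to d of embryo culture. All 4 embryo culture values were under background, so that the larval brain value was at least 1.76-fold their geometric mean (log2 difference 2.05 ± 0.51, limma adjusted p = 0.0727). Against array d alone, whose background was 271, the bound is lower. Mcm2, a subunit of the replicative helicase, stood at 763 in larval brain, and at 172, 237, 162 and 197 in embryo culture. The embryo culture values lay close together, and the difference was 1.77 ± 0.58 (limma adjusted p = 0.164). Mcm3, of the same helicase, stood at 709 in larval brain, and at 39.9, 41.7, 204 and 416 in embryo culture, so that the embryo culture values lay further from one another than the highest of them lay from larval brain (2.12 ± 0.98, limma adjusted p = 0.331). On arrays a and b of embryo culture, Mcm3 was under background. Mcm5 stood at 708 in larval brain and at 234 ± 93.3 in embryo culture (SD, n = 4), a log2 difference of 1.48. Mcm6 stood at 240 in larval brain and under background on all embryo culture arrays, with a log2 difference of 0.89. No fold is given for it, since the larval brain value is itself under the background of array d. All 4 measured helicase genes were thus above the embryo culture range.

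PCNA, the sliding clamp of the replication fork, had an intensity of 2235 in larval brain, and of 805, 1013, 1516 and 1844 on arrays a to d of embryo culture. It was well above background on each array, and the larval brain value exceeded the highest embryo culture value by a small margin (log2 difference 0.84 ± 0.49, limma adjusted p = 0.465). RnrL, the large subunit of ribonucleotide reductase, stood at 1140 in larval brain and at 958 ± 349 in embryo culture (SD, n = 4), inside the embryo culture range. The origin recognition genes Orc1, Orc2 and Orc5 were inside it as well. Orc1 stood at 547 in larval brain and at 515 ± 234 in embryo culture, Orc5 at 298 in larval brain and 327 ± 165 in embryo culture, and Orc2 at 150 in larval brain and 154 ± 124 in embryo culture (SD, n = 4). Their log2 differences were 0.18 ± 0.60, 0.17 ± 0.84 and 0.01 ± 0.70 for Orc1, Orc2 and Orc5. In embryo culture, Orc2 was above background on array b alone, so that its difference rests mostly on dim signals. The median difference of the 10 replication genes was 0.86, and 6 of them lay above all embryo culture arrays.

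Among the regulators of entry into S phase, E2f1, CycE and Cdk2 stood above the embryo culture arrays while Cdk4 stood below them. E2f1, the activating E2F transcription factor, had an intensity of 1796 in larval brain, and of 49.6, 47.8, 440 and 246 on arrays a to d of embryo culture. Only array c of embryo culture was above background, so that the log2 difference of 3.27 ± 0.95 (limma adjusted p = 0.112) rests mostly on dim signals. It was 1.23 with the 3′ to middle index of RNA quality as covariate and -0.93 with the floored 3′ to 5′ index, both of which measure loss of the 5′ side of transcripts. CycE, the cyclin that triggers S phase, stood at 637 in larval brain, and at 113, 113, 249 and 167 in embryo culture, above background on array c alone (1.76 ± 0.66, limma adjusted p = 0.224). Its kinase partner Cdk2 stood at 1272 in larval brain, and at 446, 437, 385 and 535 in embryo culture (1.41 ± 0.44, limma adjusted p = 0.144). The 4 embryo culture values lay close together for Cdk2, and larval brain stood above them. Dp, the obligate partner of E2F proteins, stood at 1091 in larval brain and at 590 ± 85.9 in embryo culture (SD, n = 4), a log2 difference of 0.85.

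The cyclin D kinase went the other way. Cdk4, which in flies acts with cyclin D in growth as well as in cell cycle entry, had an intensity of 314 in larval brain, and of 946, 724, 1099 and 501 on arrays a to d of embryo culture. It was the only one of the 31 genes whose larval brain value lay under every embryo culture array (log2 difference -1.20 ± 0.51, limma adjusted p = 0.284). It is described here because it stood alone in this, which was known only from its values. CycD, its cyclin, was inside the embryo culture range with 444 in larval brain and 445 ± 151 in embryo culture (SD, n = 4). Of the 6 regulators of S phase entry, 4 were above all embryo culture arrays and 3 were higher at an unadjusted p under 0.05, with a median difference of 1.13.

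The 3 measured genes of cell cycle exit did not share a direction. E2f2, the E2F protein that represses its targets, stood at 1291 in larval brain, and at 881, 682, 429 and 250 on arrays a to d of embryo culture. Larval brain was above each embryo culture array, and array d was under background (log2 difference 1.27 ± 0.62, limma adjusted p = 0.371). Rbf, the retinoblastoma protein that binds E2F, stood at 271 in larval brain, and at 144, 127, 309 and 23.8 in embryo culture, where it was above background on array c alone (0.90 ± 0.87). The gene fzr, which encodes the activator of the anaphase-promoting complex that keeps mitotic cyclins low after exit, stood at 284 in larval brain, and at 374, 384, 247 and 480 in embryo culture (-0.31 ± 0.56, limma adjusted p = 0.836). Rbf and fzr lay inside the embryo culture range. None of the 3 had an unadjusted p under 0.05. Their median difference was 0.90, which is that of Rbf, and it was 0.48 either without embryo culture array d or when dim probe sets were left out, and 0.58 with the 40th percentile as pseudocount.

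All 3 measured genes of mitotic entry and cyclin destruction were above the embryo culture arrays in larval brain. CycB, a mitotic cyclin, had an intensity of 2100 in larval brain, and of 755, 810, 728 and 1270 on arrays a to d of embryo culture (log2 difference 1.23 ± 0.43, limma adjusted p = 0.197). CycB3, another mitotic cyclin, stood at 517 in larval brain, and at 325, 268, 273 and 135 in embryo culture (0.97 ± 0.62, limma adjusted p = 0.507). The gene fzy, which encodes the Cdc20 protein that turns the anaphase-promoting complex on mitotic cyclins, stood at 594 in larval brain, and at 145, 162, 193 and 38.9 in embryo culture. Only array c was above background for fzy, and the log2 difference was 1.92 ± 0.75 (limma adjusted p = 0.249). CycB was thus clear of background in both sources, while fzy was under background on 3 of the 4 embryo culture arrays.

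The condensin genes showed the lowest p-value of the group. The gene glu, which encodes the condensin subunit SMC4, had an intensity of 2031 in larval brain, and of 492, 605, 472 and 638 on arrays a to d of embryo culture. The 4 embryo culture values were close together and far from larval brain, and the log2 difference of 1.80 ± 0.42 had a limma adjusted p of 0.0548. SMC2, with which SMC4 forms the condensin arms, stood at 619 in larval brain, and at 300, 271, 104 and 47.9 in embryo culture (1.74 ± 0.83, limma adjusted p = 0.353). On arrays c and d of embryo culture, SMC2 was under background. The gene barr, which encodes the condensin subunit that bridges both, stood at 913 in larval brain, and at 299, 326, 355 and 482 in embryo culture (1.24 ± 0.50, limma adjusted p = 0.26). All 3 condensin genes were above every embryo culture array, with a median difference of 1.74.

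Genes of the chromosomal passenger complex, the spindle checkpoint and the spindle were above the embryo culture arrays in 5 of 6 cases. The kinase gene aurB had an intensity of 673 in larval brain, and of 33.4, 62.6, 78.9 and 115 on arrays a to d of embryo culture, under background on all 4. Larval brain was at least 3.82-fold the geometric mean of the embryo culture values (log2 difference 2.63 ± 0.66, limma adjusted p = 0.0729). Incenp, the passenger protein that binds and activates aurB, stood at 781 in larval brain, and at 167, 100, 102 and 67.4 in embryo culture, above background on array a alone (2.44 ± 0.66, limma adjusted p = 0.093). Both passenger genes were thus near or under background in embryo culture and clear of it in larval brain.

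Bub3, a spindle checkpoint protein, had an intensity of 2847 in larval brain, and of 913, 989, 1275 and 1006 on arrays a to d of embryo culture (log2 difference 1.42 ± 0.38, limma adjusted p = 0.0888). The checkpoint gene mad2 stood at 540 in larval brain and at 248 ± 83.2 in embryo culture (SD, n = 4), a log2 difference of 1.03. Both checkpoint genes were above every embryo culture array. Klp61F, the kinesin that separates the spindle poles, stood at 1716 in larval brain, and at 355, 499, 1090 and 503 in embryo culture (1.53 ± 0.57, limma adjusted p = 0.224). The gene tum, which acts in cytokinesis through the central spindle, was the exception, with 653 in larval brain and 585 ± 258 in embryo culture (SD, n = 4), inside the embryo culture range. The median difference of these 6 genes was 1.48, and 4 of them were higher at an unadjusted p under 0.05.

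**Figure D2:**
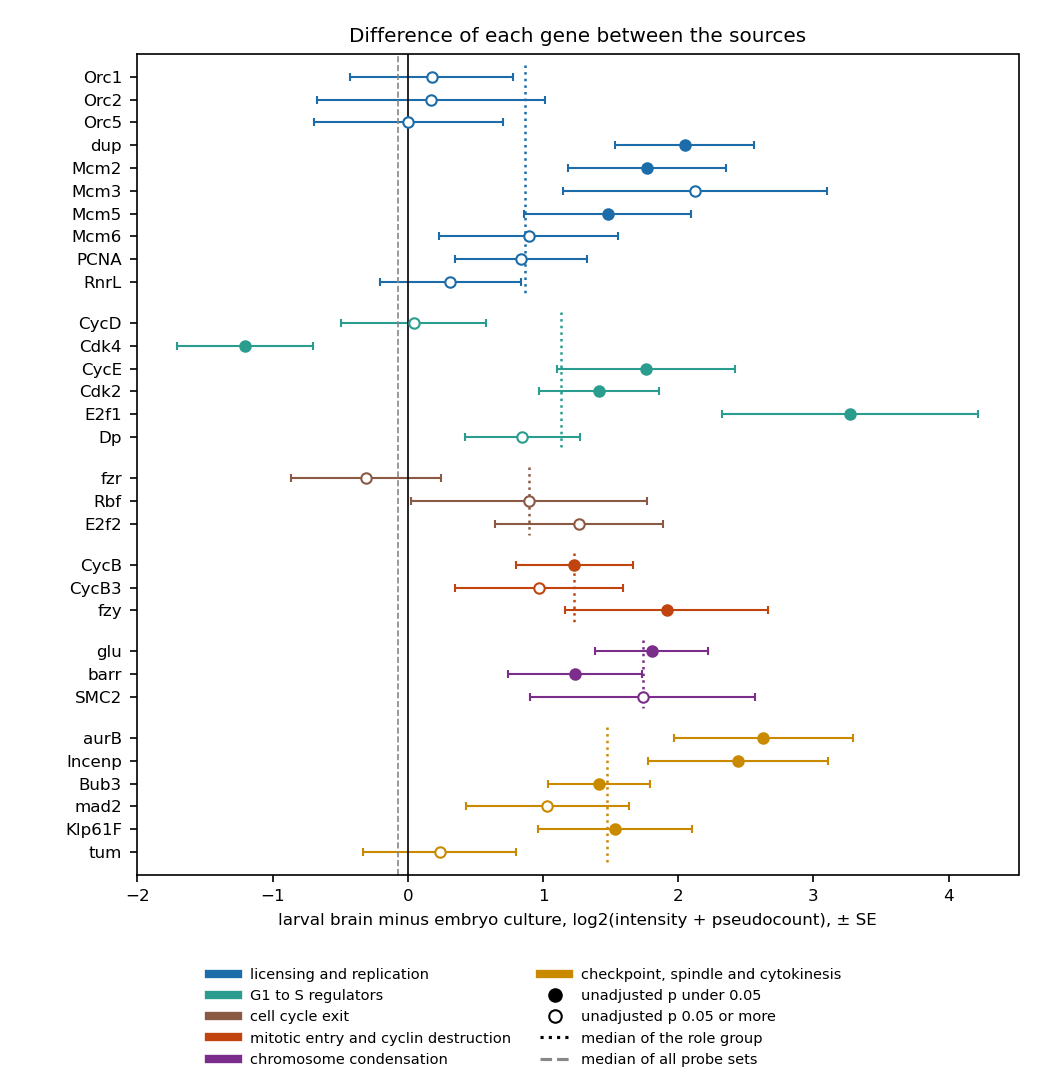
Log2 difference of each of the 31 genes, larval brain minus embryo culture, with its SE; filled points have an unadjusted p under 0.05. Dotted lines mark the median of each role group, from 0.86 for replication to 1.74 for condensation, and the dashed line marks the median of all probe sets at -0.07.

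The role groups can be set side by side by their medians. These were 1.74 for condensation, 1.48 for checkpoint, spindle and cytokinesis, 1.23 for mitotic entry and cyclin destruction, 1.13 for S phase entry, 0.90 for cell cycle exit and 0.86 for replication. Differences between these medians were not tested, and without embryo culture array d the exit median was 0.48 and the replication median 0.996, in the opposite order. The count above every embryo culture array was 3 of 3 for condensation and for mitotic entry, 5 of 6 for checkpoint and spindle, 4 of 6 for S phase entry, 6 of 10 for replication and 1 of 3 for exit. All 31 genes were above background in larval brain, and 21, 21, 25 and 17 were on arrays a to d of embryo culture, where backgrounds were higher. Over all probe sets the shares were 68% in larval brain, and 59.6%, 53.8%, 61.9% and 48.6% on arrays a to d of embryo culture. At a common limit of 271, the highest background, 28 genes were above it in larval brain, and 17, 17, 18 and 17 were on arrays a to d of embryo culture. Of all 13966 probe sets, 6098 were above that limit in larval brain, and 6296, 6457, 6034 and 6793 on arrays a to d.

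The embryo culture arrays also differed among themselves, and not alike for each role group. Arrays c and d both stood above arrays a and b for 13 of the 31, against 22.4% of all probe sets, and both below them for 4, against 21.7%. The 13 held 5 of the 10 replication genes (Orc1, Orc5, Mcm3, Mcm5 and PCNA), as well as CycD, CycE, E2f1, barr, aurB, Bub3, Klp61F and tum. The 4 were Dp, E2f2, SMC2 and mad2. For PCNA the larval brain value lay nearer to that of array d than array d lay to array a. As a median over the 10 replication genes, the deviation from the embryo culture mean was -0.47, -0.28, 0.19 and 0.47 on arrays a to d. The other 5 replication genes had no such order, and Mcm2, Mcm6 and Orc2 were lowest on array c and RnrL on array d. For the 3 exit genes the deviation was 0.17, 0.07, -0.22 and -0.90.

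**Figure D3:**
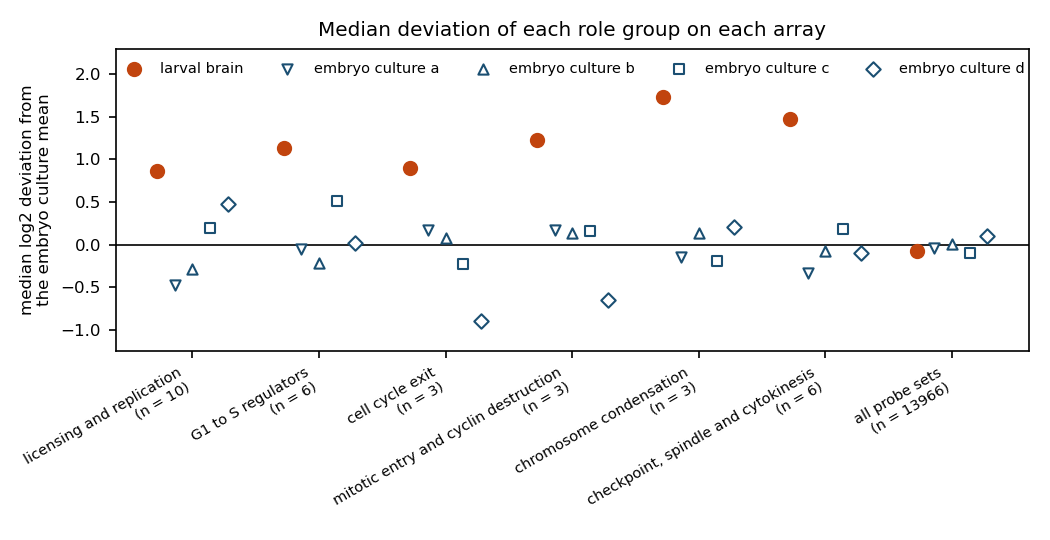
Median log2 deviation of each role group from the embryo culture mean, on the larval brain array (filled circles) and on arrays a to d of embryo culture (open symbols). The larval brain medians run from 0.86 to 1.74, above each embryo culture array in all 6 groups, while over all probe sets larval brain lies at -0.07.

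RNA quality moved with the group. A mean log2 ratio of 3′ to middle signal over the control transcripts of actin, eIF-4a and GAPDH, which grows as the 5′ side of transcripts is lost, was 1.146 on the larval brain array, and 2.450, 2.345, 1.495 and 1.660 on arrays a to d of embryo culture. The like 3′ to 5′ index, with 5′ signals set no lower than background, was 4.237 in larval brain, and 7.025, 6.641, 6.475 and 5.993 in embryo culture. Arrays a and b, with the higher 3′ to middle index, were also those with the lower replication medians. With the 3′ to middle index as a covariate, the median difference of the 31 genes was 1.07, 24 differences were positive and 9 genes were higher at an unadjusted p under 0.05. In that fit PCNA had a difference of -0.01, and Orc1, Orc5, CycD and tum had negative ones, while Cdk4 and fzr stayed negative. The difference was 1.23 for E2f1 (3.27 without the covariate), 0.27 for Mcm3 (2.12 without), 0.84 for Mcm5 (1.48 without), 0.65 for Klp61F (1.53 without) and 1.07 for CycE (1.77 without). It was larger for E2f2, at 2.35, for SMC2, at 3.14, and for mad2, at 1.64. For the other genes with a positive difference in both fits and one above 0.5 without the covariate, the 2 values lay within 1.5 times of each other, as for glu at 1.82. The replication median was 0.51 in that fit. With the floored 3′ to 5′ index, 19 differences were positive and 3 genes were higher at an unadjusted p under 0.05. The medians were then -1.06 for replication, 0.56 for S phase entry, 3.85 for exit, 3.24 for mitotic entry, 1.16 for condensation and 0.72 for checkpoint and spindle. In that fit Orc1, Orc2, Orc5, Mcm3, Mcm5, PCNA, CycD, E2f1, fzr, CycB, barr and tum had negative differences and Cdk4 a positive one. That fit reaches beyond the embryo culture range of the index, and its median SE over the 31 genes was 1.59. The fit with the 3′ to middle index also reaches beyond the embryo culture range of its index, with a median SE of 0.73. The part of RNA quality in the differences was not tested beyond these fits.

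The choice of embryo culture arrays decided which genes passed the test. Against arrays a and b alone, 9 of the 31 genes passed at a limma adjusted p under 0.05, all higher in larval brain (Bub3, Cdk2, CycB, E2f1, Klp61F, Mcm3, PCNA, aurB and glu), where 5.58% of all probe sets passed as higher. Against arrays c and d alone, E2f1 and glu passed as higher, where 2.18% of all probe sets passed as higher. Both fits share the single larval brain array, so that they are not independent of each other. That array is assumed in them to vary like the 2 embryo culture arrays.

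**Figure D4:**
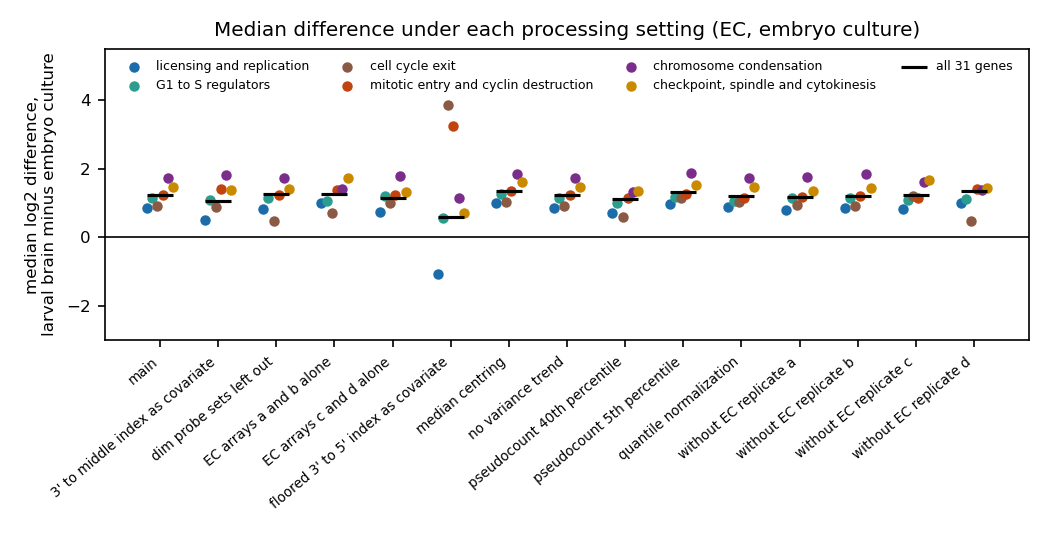
Median log2 difference, larval brain minus embryo culture, of each role group (coloured points) and of the 31 genes (black dash) under the reported setting (main) and each alternative. The replication median is negative with the floored 3′ to 5′ index as covariate, at -1.06, and the median of the 31 genes stays above 0 in each setting shown, at 0.60 in that one.

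Markers of other cell types also differed between the sources. Of 15 measured neuroblast and progenitor markers, 12 had positive differences, against 46.0% of all probe sets. The differences of grh, klu and insc were negative, at -0.58, -0.35 and -0.11. The genes pros, nerfin-1 and E(spl)mdelta-HLH, 3 in all, passed the test as higher in larval brain, against 0.866% of all probe sets. Whether transcripts of the genes on this list came from dividing progenitors or from neurons was not tested. The summed intensity of the 15 was 22040 in larval brain and ran from 3860 to 7572 in embryo culture. Much of the larval brain sum came from brat, pros and nerfin-1, at 6722, 3835 and 3658. The defining neuroblast gene dpn stood at 253 in larval brain, and at 126, 266, 128 and 325 in embryo culture. It was inside the embryo culture range, as was ase, with 111 in larval brain and 64.3 ± 76.5 in embryo culture (SD, n = 4). In embryo culture, ase was above background on array c alone. Its larval brain value was under the background of every embryo culture array, so that its place in the range says little. The neuroblast genes wor and mira were above every embryo culture array. The gene wor stood at 683 in larval brain and 258 ± 125 in embryo culture, and mira at 1911 in larval brain and 468 ± 184 in embryo culture (SD, n = 4). Neuroblast markers thus differed among themselves in the way larval brain compared with embryo culture.

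The other marker lists divided by tissue. Of 11 neuronal markers, 9 had positive differences, with a summed intensity of 13276 in larval brain and 4517 to 12256 in embryo culture. Glial markers were positive for 3 of 9, with sums of 3259 in larval brain and 3374 to 5216 in embryo culture. Muscle markers were positive for 0 of 7 (526 in larval brain, 918 to 5983 in embryo culture), blood cell markers for 1 of 9 (1128 in larval brain, 2480 to 5998 in embryo culture) and germline markers for 0 of 7 (592 in larval brain, 906 to 1856 in embryo culture). Gut and epithelial markers were positive for 1 of 7, and 6 passed the test as lower, against 2.39% of all probe sets, with sums of 2460 in larval brain and 29386 to 53058 in embryo culture. In larval brain the gut genes hoka and Muc26B were under background, with 12.3 and 14.2. The glial gene Mdr65 (-2.71, limma adjusted p = 0.0414) and the blood cell gene Tig (-4.07, limma adjusted p = 0.00189) also passed as lower. The largest positive glial difference was that of gcm, at 2.57. The part of these cell types in the division gene differences was not tested.

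Other genes of the same pathways, taken from lists of replication, mitotic, inhibitor and MuvB genes, were named on the array for 83 genes. Of 43 other mitotic genes, 37 had positive differences, 30 lay above every embryo culture array and 2 passed the test as higher in larval brain, against 0.866% of all probe sets. The median difference was 1.11, and it was 0.70 both with the 3′ to middle index as covariate and with the 40th percentile as pseudocount. The count that passed was 0 with dim probe sets left out or with the floored 3′ to 5′ index. It was 1 with the 3′ to middle index or without embryo culture array a, b or c. Against arrays c and d alone it was 3, and against arrays a and b alone 8. Of all probe sets tested, 1.67% passed as higher with dim ones left out and 0% with the floored index. The share was 0.687% with the 3′ to middle index and 0.422% to 0.501% without array a, b or c. Against arrays c and d alone it was 2.18%, and against arrays a and b alone 5.58%. The 2 genes that passed with all arrays and no covariate were Klp67A and sub, both kinesin genes of the spindle. Klp67A stood at 286 in larval brain, and at 20.4, 19.2, 21.5 and 29.0 on arrays a to d of embryo culture, under background on all 4. Larval brain was at least 1.63-fold the geometric mean of the embryo culture values (log2 difference 2.26 ± 0.40, limma adjusted p = 0.0192). The larval brain value was close to the background of array d, at 271. The gene sub stood at 130 in larval brain, and at 9.4, 13.4, 5.5 and 8.4 in embryo culture (1.65 ± 0.28, limma adjusted p = 0.0149), where the larval brain value is itself under the background of embryo culture arrays a, b and d, so that no fold is given.

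Of 26 other replication genes, 17 had positive differences, 10 lay above every embryo culture array and 0 passed, with 3 higher at an unadjusted p under 0.05, a share of 11.5% beside 8.21% of all probe sets. The median difference was 0.45, and it was 0.02 with the 3′ to middle index as covariate, 0.13 against arrays c and d alone, 0.29 with the 40th percentile as pseudocount and -0.39 with the floored 3′ to 5′ index. Of 10 other inhibitors and checkpoint genes, 4 lay above every embryo culture array and 0 passed, with 1 higher at an unadjusted p under 0.05. The median was 0.45, and it was 0.29 without embryo culture array a, 0.30 against arrays a and b alone, 0.21 against arrays c and d alone and -0.53 with the floored index. The 4 measured MuvB genes, parts of the complex that controls cell cycle transcription, had a median of 0.57 (0.24 with dim probe sets left out), with 2 above every embryo culture array, 0 past the threshold and 1 higher at an unadjusted p under 0.05. Over all probe sets, 25.6% lay above every embryo culture array, 0.866% passed as higher and 8.21% were higher at an unadjusted p under 0.05. The 1 of 10 inhibitors and checkpoint genes is near that last share. Of the 83 genes, 0 passed as lower by limma, which is near the 2.39% of all probe sets that did. Against the 25.6% of all probe sets above every embryo culture array, the share was 69.8% for the other mitotic genes and 38.5% for the other replication genes.

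**Figure D5:**
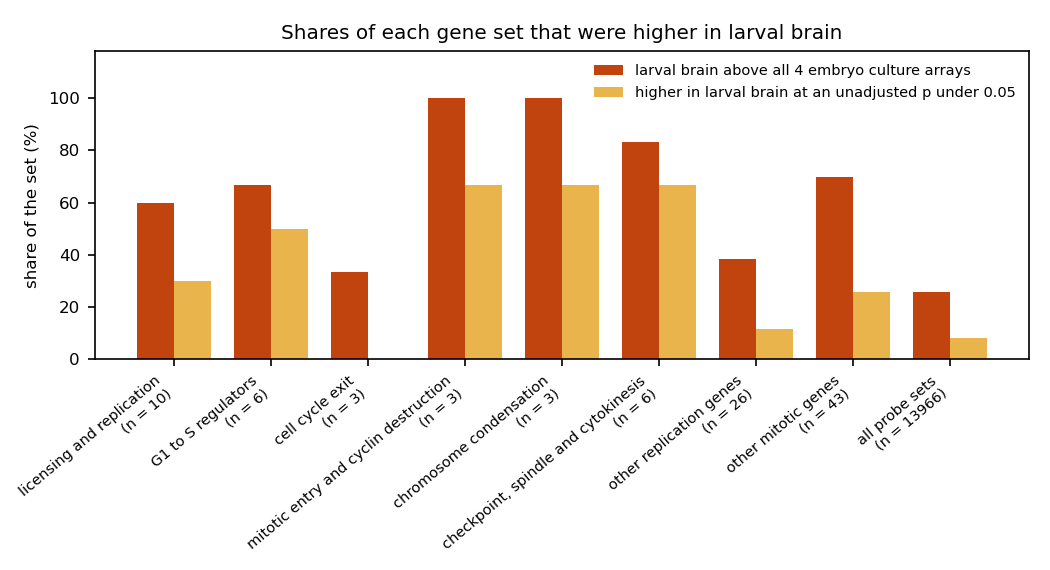
Share of each gene set whose larval brain value lay above all 4 embryo culture arrays (left bars) or that was higher at an unadjusted p under 0.05 (right bars). Over all 13966 probe sets the shares are 25.6% and 8.21%, and over the 43 other mitotic genes 69.8% and 25.6%.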

How the data were processed

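The authors deposited 1 table of probe set intensity values for 5 arrays, 14010 probe sets each. Its 2% trimmed means of 500.06 to 500.08 show scaling to a common mean; for the software, background correction and detection calls, the entry is: not given in the sources used here. The 44 control probe sets were left out of the tests, which left 13966. Intensities were taken to log2 after 47.4, their 20th percentile, was added, and were tested in R 4.3.3 with limma 3.58.1 (lmFit, eBayes with a variance trend, Benjamini-Hochberg adjustment, threshold 0.05). With 4 arrays against 1, 3 residual degrees of freedom became 9.11 after moderation. Tables and plots used Python 3.11.15, NumPy 2.4.6, pandas 2.3.3 and matplotlib 3.10.9. The fit was tested on simulated data.

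Genes were named from the platform annotation, in which 12443 probe sets have 1 symbol, 327 several and 1196 none. Symbols were set against RefSeq Release 6 through gene identifiers, and 0 of the 31 differed. Pairs of arrays correlated over probe sets at 0.738 to 0.802 between larval brain and embryo culture, and at 0.837 to 0.933 within embryo culture. At most 14 values were identical between any pair of arrays.

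The members and gene lists were chosen with earlier results of these data known, as was the background. Values on every array are given for genes past the threshold, for the 3 of each role group with the largest absolute difference outside the embryo culture range and a group mean over 224.7 (the median over the table), and for the gene with the highest level of each group. Cdk4, Rbf and fzr, the values by array of the cell type markers, and the count at an unadjusted p under 0.05 were added after values were seen. Of the other cell cycle lists, the 2 largest changes in each direction past the threshold are named. A bound written as "at least" divides the larval brain value by the geometric mean of the embryo culture backgrounds, each taken as the lowest signal its array could have measured. It limits the mean fold over these arrays, not the fold against each of them. The 14 alternatives were other pseudocounts, scalings, a filter on dim probe sets, no variance trend, RNA quality covariates and fewer embryo culture arrays. The mean over a gene's probe sets was used besides for the other gene lists.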

Additional observations from a re-analysis of the deposited data

Results flagged for a closer look

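Mcm6, a subunit of the replicative helicase, had 1 embryo culture array apart from the rest. Its intensity was 240 in larval brain, and 121, 132, 57.2 and 133 on arrays a to d of embryo culture. The gap of array c to the nearest of the others was 0.876 of the range of the 4, above Dixon's critical value for 4 samples. All 4 values were under background. Of the 31 genes tested in this way, 1 was picked out, and chance picks out about 1 group in 20.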

How the results depend on the processing

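No paired analysis was possible because the sources share only the replicate letter a. Over all probe sets, 455 passed the threshold, against 1732 with embryo culture arrays a and b alone, 796 with arrays c and d alone, 303 with no variance trend, 2 with the floored 3′ to 5′ index as covariate and 292 to 403 when each embryo culture array was left out in turn. Of the 31 genes, 0 passed, against 9 with arrays a and b alone, 2 with arrays c and d alone (E2f1 and glu), 2 with the 40th percentile as pseudocount (aurB and dup), and 1, glu, with median centring or with dim probe sets left out. Of all probe sets tested, 5.58% passed as higher with arrays a and b alone and 2.18% with arrays c and d alone. The share was 1.12% with the 40th percentile, 0.952% with median centring and 1.67% with dim probe sets left out. The count higher at an unadjusted p under 0.05, 14, was 9 under the 3′ to middle covariate and 3 under the floored one, where 6.92% and 4.71% of all probe sets were. The median difference of 1.24 was 1.07 under the 3′ to middle covariate, 0.60 under the floored one, 1.36 with median centring, 1.12 with the 40th percentile and 1.17 to 1.36 when each array was left out. Median centring moved the median of all probe sets from -0.07 to 0.05, and the floored index moved it to -0.35. In at least 1 setting, 12 of the 31 differences changed sign. The mean over a gene's probe sets gave no other value for the 31 genes, which have 1 probe set each. The causes of these changes were not tested. Dim signals limit embryo culture most. On array d, whose background was the highest, 17 of the 31 genes were above it, against 48.6% of all probe sets.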
